A study of Mus musculus with 6 samples.

Results

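Chi3l1, Chi3l3 and Chi3l4 are 3 of the 39179 genes in a table of mouse pylorus RNA levels, and were taken by their gene symbols, each of which stands in 1 row. They are older symbols: the same Ensembl identifiers are named Chil1, Chil3 and Chil4 in GENCODE mouse release M21. The 3 genes were selected on their levels in Sox2 KO and Sox2 WT tissue, so those levels are given as a description. The only test outcome printed for them is a count beside the share over all genes, from which nothing is read.

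The pylorus is the part of the stomach that opens into the duodenum. Sox2 KO mice carried Rosa26CreER and Sox2 fl/fl, that is, a tamoxifen-activated Cre recombinase at the Rosa26 locus, which is active in most cell types, and floxed alleles of the transcription factor gene Sox2. Sox2 WT mice carried Sox2 fl/fl with a wild-type Rosa26 locus, so they had the floxed alleles and no Cre. All mice were of a C57BL/6 x 129 mixed strain, received tamoxifen at 8 weeks of age and gave tissue 2 weeks later. The age label reads 8 weeks for every sample and the series text 10 weeks. RNA came from epithelium and mesenchyme after the muscle layer had been pulled away, with 3 libraries in each group. The libraries are called controls 1 to 3 (Sox2 WT) and knockouts 1 to 3 (Sox2 KO), by their replicate numbers. The labels number the libraries but do not say that each is a separate animal, so any p-value reflects spread among the libraries at hand. That spread may be technical, except that sex-linked genes, given below, place control 1 in another animal than controls 2 and 3.

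Chitinases are enzymes of the glycosyl hydrolase 18 family that cut chitin, the polymer of fungal walls, insect cuticle and worm eggs. Chitinase-like proteins keep the fold and bind sugars but have lost the catalytic activity. The proteins of Chi3l3 and Chi3l4 are known as Ym1 and Ym2, exist in rodents but not in humans, and are widely used as signs of the type 2 response driven by the cytokines IL-4 and IL-13. Ym1 is made mainly by alternatively activated macrophages and by myeloid cells, and Ym2 mainly by epithelium, the stomach included. Chi3l1, called YKL-40 in humans and BRP-39 in mice, is made by macrophages, neutrophils and epithelial cells in inflamed tissue.

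On mm10, Chi3l3 (ENSMUSG00000040809) lies on chromosome 3 from 106147554 to 106167564 and Chi3l4 (ENSMUSG00000063779) from 106201490 to 106219507, both on the minus strand. The gap between them is 33.9 kb, and the acidic mammalian chitinase gene Chia lies 15.4 kb beyond Chi3l3. Chi3l1 (ENSMUSG00000064246) lies on chromosome 1 from 134182176 to 134190181, on the plus strand, 30.6 kb from Chit1, the gene of the other active chitinase. The annotation gives the longest transcript of Chi3l3 and of Chi3l4 11 exons and that of Chi3l1 10 exons, and no annotated gene overlaps any of the 3. Sox2 is also on chromosome 3, 71.5 Mb from Chi3l3.

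The promoter windows of Chi3l3 and Chi3l4 are shown because they are close copies of each other in front of genes with very different levels. RefSeq (GRCm38.p6) promoter windows, from 250 bases before to 50 bases after the start, were matched for 3 of the 3 genes. The windows of Chi3l3 (chr3:106167515-106167814, minus strand) and Chi3l4 (chr3:106219430-106219729, minus strand) align over 271 bases with 20 mismatches and 2 gap bases, an identity of 92.6%. Against the Chia window the identity is 61.0% for Chi3l3 and 65.7% for Chi3l4. Capitals mark the bases that differ or have no partner within the aligned stretch.
Chi3l3: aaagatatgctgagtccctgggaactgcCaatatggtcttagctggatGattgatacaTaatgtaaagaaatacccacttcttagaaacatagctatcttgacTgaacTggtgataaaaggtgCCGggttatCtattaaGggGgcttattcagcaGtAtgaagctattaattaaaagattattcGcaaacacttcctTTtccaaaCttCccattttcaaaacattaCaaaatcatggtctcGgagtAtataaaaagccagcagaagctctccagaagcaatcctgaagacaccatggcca
Chi3l4: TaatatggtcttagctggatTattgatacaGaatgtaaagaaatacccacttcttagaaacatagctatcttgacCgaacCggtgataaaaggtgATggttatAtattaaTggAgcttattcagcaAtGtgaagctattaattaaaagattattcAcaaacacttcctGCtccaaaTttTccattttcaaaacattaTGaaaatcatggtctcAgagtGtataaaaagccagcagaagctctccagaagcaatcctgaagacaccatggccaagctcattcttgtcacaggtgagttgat
A TATA box, searched as TATAAA on both strands, occurs once in each of these windows, as it does in 13.6% of 32851 promoter windows. It begins 31 bases before the RefSeq start of Chi3l4 and 3 bases before that of Chi3l3, since the start drawn for Chi3l3 is farther upstream on the shared sequence. The STAT6 site was searched only as TTC and GAA with any 4 bases between them, which reads the same on both strands. In this form it is in neither window and in 6.95% of all windows. Both windows hold TTCTTAGAA, with 3 bases between TTC and GAA, a spacing that was not searched. The SOX site AACAAT and the PU.1 site GAGGAA, searched only in these letters on both strands, are in neither, against 10.7% and 28.3% of all windows. Other forms of these sites were not searched. The C/EBP site TTGCNNAA, on both strands, is found once in Chi3l4, 131 bases before the start, and not in Chi3l3, against 10.8% of all windows. The TATAAA and TTGCNNAA matches of Chi3l4 do not overlap. The window of Chi3l1 holds none of the 5 motifs searched, and each match is a match of letters only.

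Levels are RPKM, read numbers scaled to gene length and library size, as the authors computed them. The totals behind the RPKM were estimated at 24113255 to 33880063 reads per library, and whole read numbers were recovered for the 3 genes. Sox2 itself was at 11.1, 9.03 and 10.9 RPKM in controls 1 to 3 and at 0.342, 0.210 and 0.420 RPKM in knockouts 1 to 3. By Xist and the Y-linked gene Ddx3y, controls 2 and 3 came from females and the other 4 libraries from males, so sex and genotype cannot be fully told apart. The tissue was rich in surface mucous cell transcripts in all 6 libraries, at a summed 90598 to 160860 RPKM for 5 genes. Smooth muscle markers were still present, at a summed 416 to 707 RPKM for 6 genes. In such bulk tissue, more cells of a type and more RNA per cell cannot be told apart.

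Chi3l4, which encodes Ym2, was the gene with the largest positive log2 fold change of all 14045 genes tested. Its level was 3.14, 0.726 and 40.8 RPKM in controls 1 to 3, from 123, 33 and 1686 reads. In knockouts 1 to 3 it was 213, 1357 and 466 RPKM, from 10310, 63960 and 25619 reads. All knockouts lay above all controls, and the lowest knockout level was 5.24 times the highest control level. The libraries differed widely inside each group as well, by a factor of 56.1 in controls and 6.36 in knockouts.

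The mean of Chi3l4 was 14.9 ± 22.5 RPKM in controls and 679 ± 601 RPKM in knockouts (SD, n = 3 each), a ratio of 45.6. The difference of the group means on the log2(RPKM + 0.5) scale was 6.50, with an SD of 2.60 in controls and 1.34 in knockouts on that scale. Control 3 carried most of the control mean, and without it the ratio of means was 351. Without knockout 2 the ratio was 22.8. Both the lowest and the highest control library were female. Against the male control library alone the ratio was 216 and the log2 difference 7.14.

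By rank within a library, Chi3l4 was among the most abundant transcripts of the knockouts. Of 20550 genes above 0 in knockout 2, it was number 28, and it was number 176 and 64 in knockouts 1 and 3. In controls 1 to 3 it was number 9317, 13204 and 1434.

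Chi3l3, which encodes Ym1, followed the same order of libraries at a far lower level. It was at 0.128, 0.0880 and 0.218 RPKM in controls 1 to 3, from 5, 4 and 9 reads. In knockouts 1 to 3 it was at 1.08, 12.8 and 1.35 RPKM, from 52, 602 and 74 reads. All knockouts lay above all controls, and knockout 2 stood far above the other knockouts. The counting interval (exact Poisson, 95%, covering counting error only) ran from 1.09 to 10.2 reads for the lowest library, so the control levels are poorly fixed.

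The mean of Chi3l3 was 0.144 ± 0.0664 RPKM in controls and 5.07 ± 6.68 RPKM in knockouts (SD, n = 3 each), a ratio of 35.1. Without knockout 2 that ratio was 8.38. The log2 difference was 2.40 with all libraries and 1.41 without knockout 2, on a scale whose pseudocount compresses such low levels. With a pseudocount of 0.1 it was 3.55. Against the male control library alone it was 2.43.

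Chi3l1 was close to the limit of these libraries, with between 11 and 34 reads in each. It was at 0.178, 0.281 and 0.154 RPKM in controls 1 to 3 and 0.288, 0.357 and 0.359 RPKM in knockouts 1 to 3. The groups did not overlap, but the lowest knockout library, with 24 reads (95% Poisson interval 15.4 to 35.7), and the highest control library, with 22 reads (13.8 to 33.3), were within counting error of each other. Means were 0.204 ± 0.0673 RPKM in controls and 0.335 ± 0.0402 RPKM in knockouts (SD, n = 3 each), a ratio of 1.64 and a log2 difference of 0.25. Its mean over the 6 libraries was below the filter of 0.5 RPKM, so it was not among the genes tested.

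**Figure D1:**
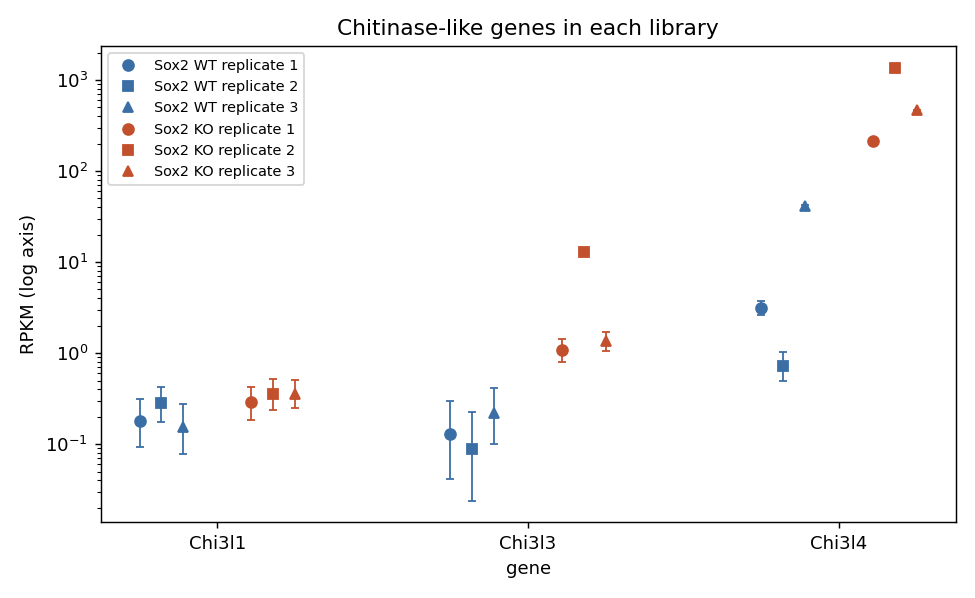
RPKM on a log axis for the 3 genes in each library, with bars for the 95% Poisson interval of the recovered reads, controls (Sox2 WT) in blue and knockouts (Sox2 KO) in red. Chi3l1 stays between 0.154 and 0.359 RPKM, while Chi3l4 runs from 0.726 RPKM in control 2 to 1357 RPKM in knockout 2.

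In all 3 genes the 3 knockout values lay above the 3 control values, as they did in 4.09% of the 14045 genes tested and in 3.89% of the 23494 genes above 0 in any library. The reverse order was found in 2.99% of the genes tested and in none of the 3 genes. Of the 2 genes that passed the filter, Chi3l3 and Chi3l4, limma put 0 past an adjusted p of 0.05, which 4 of 14045 genes (0.0285%) reached, 2 of them higher (0.0142%) and 2 lower (0.0142%) in knockouts. Over all genes tested, 3.15% had an unadjusted p under 0.05. Nothing is read from these counts, because the genes were selected on the same contrast.

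Within a library, where RPKM are per length, Chi3l4 stood above both relatives in all 6 libraries. Chi3l1 stood above Chi3l3 in controls 1 and 2 and below it in control 3 and the 3 knockouts. In all 3 controls the counting intervals of Chi3l1 and Chi3l3 overlapped, for example in control 1 at 0.0920 to 0.311 RPKM and 0.0415 to 0.298 RPKM.

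Chi3l3 and Chi3l4 shared the order of libraries inside both groups. Control 3 was highest and control 2 lowest among controls, and knockout 2 was highest and knockout 1 lowest among knockouts. This order was found in 111 of the 14045 genes tested (0.79%). For Chi3l3, only the place of knockout 2 within its group was beyond counting error. The 95% Poisson intervals of Chi3l3 overlapped among controls 1 to 3 (5, 4 and 9 reads). Those of knockouts 1 and 3 overlapped as well (0.804 to 1.41 and 1.06 to 1.69 RPKM). Over the 6 libraries the log2 levels of the pair had a Pearson correlation of 0.83, and 0.50 after each group was centred on its own mean. The 6 points share libraries and depth, and they fall apart by genotype.

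The pair are near-identical copies, so some reads cannot be assigned. Their longest coding transcripts, 1539 bases each, align with 86 mismatches over 1538 bases, an identity of 94.4%. Of all 50-base windows in the Chi3l3 transcript 18.5% also occur in that of Chi3l4, and of all 100-base windows 3.75% do. Neither the read length nor the handling of reads with several matches is stated in the labels. Chi3l3 reads amounted to 0.504%, 0.941% and 0.289% of Chi3l4 reads in knockouts 1 to 3. In controls 1 to 3 the shares were 4.07%, 12.1% and 0.534%. In the 4 libraries with the most Chi3l4, Chi3l3 reads were thus below 1% of Chi3l4 reads. Whether any of them came from Chi3l4 transcripts was not tested. Chi3l1 shared no 36-base window with Chi3l4.

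Among the other chitinase-fold genes, none separated the groups. Of 7 measured, 4 passed the filter, and limma put 0 past the threshold (0 with an unadjusted p under 0.05), with a median log2 fold change of 0.24 beside 0.02 over all genes tested. Chia, the abundant acidic chitinase of gastric chief cells, was at 801, 3239 and 221 RPKM in controls 1 to 3 and 3255, 4857 and 1577 RPKM in knockouts 1 to 3. Its groups overlapped (limma log2 difference 1.81, SE 0.915, adjusted p = 1.00). Among controls Chia was lowest in control 3, where Chi3l4 was highest, and highest in control 2, where Chi3l4 was lowest.

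Chit1, the chitinase gene beside Chi3l1, was at 1.98 ± 1.00 RPKM in controls and 2.64 ± 0.599 RPKM in knockouts (SD, n = 3 each), and limma gave a log2 difference of 0.41 (SE 0.302, adjusted p = 1.00). For Chid1, which encodes a chitinase-domain protein, the log2 fold change was 0.07 (SE 0.133). For Ctbs, the gene of the lysosomal enzyme chitobiase, it was -0.02 (SE 0.106). Chi3l7, named Chil5 in GENCODE, had means of 0.305 ± 0.307 and 0.588 ± 0.339 RPKM (SD, n = 3 each). BC051070, named Chil6 there, reached at most 0.150 RPKM and the oviduct glycoprotein gene Ovgp1 0.166 RPKM. These last 3 were under the filter, and their knockout values overlapped their control values.

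Neighbours on the chromosome were examined within 500 kb of each gene's start. Around Chi3l4, 10 genes other than Chi3l3 and Chi3l4 were tested and 0 passed (limma; 1 with an unadjusted p under 0.05), with a median log2 fold change of 0.18. The largest was that of Chia, followed by 0.54 for 2010016I18Rik. Around Chi3l1, 13 neighbours were tested, 0 passed (0 with an unadjusted p under 0.05) and their log2 fold changes ran from -0.25 to 0.41.

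**Figure D2:**
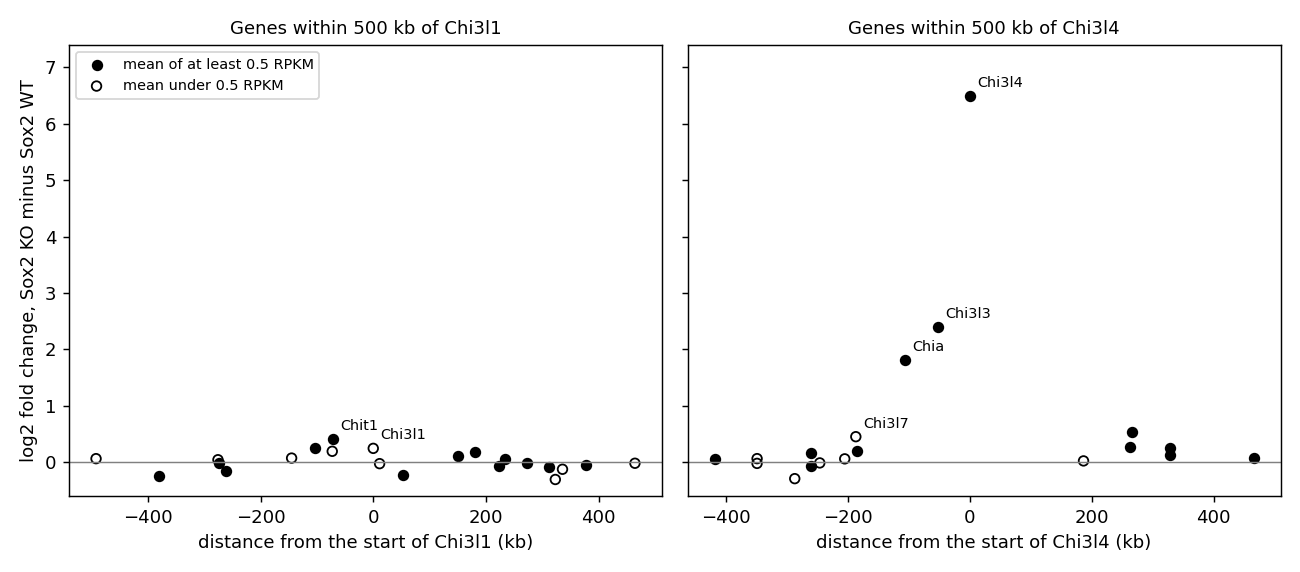
Log2 fold change on the log2(RPKM + 0.5) scale, knockouts (Sox2 KO) minus controls (Sox2 WT), of genes within 500 kb of Chi3l1 (left) and Chi3l4 (right), against distance in kb; filled points have a mean of at least 0.5 RPKM. Chi3l4 at 6.50, Chi3l3 at 2.40 and Chia at 1.81 stand above their neighbours, while Chi3l1 at 0.25 lies among its own.

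The signals that induce Ym1 and Ym2 begin with IL-4 and IL-13, which act through the receptor chains Il4ra and Il13ra1 and the transcription factor Stat6, and with the epithelial alarmins IL-25, IL-33 and TSLP. Of 20 such ligand, receptor and transducer genes measured, 15 passed the filter, and limma put 0 past the threshold (1 with an unadjusted p under 0.05). Their median log2 fold change was -0.03. Stat6 was at 31.0 ± 2.90 RPKM in controls and 30.7 ± 3.09 RPKM in knockouts (SD, n = 3 each). The log2 fold change was 0.09 (SE 0.168) for Il13ra1 and -0.01 (SE 0.152) for the receptor kinase gene Jak1. The cytokine genes Il4, Il5, Il13 and Il25 were under the filter, at no more than 0.28 RPKM in any library. They were singled out after their values were seen, as were Il33, Il17rb and Jak3. Il33 was at 4.76, 3.48 and 22.3 RPKM in controls 1 to 3 and 6.82, 7.63 and 6.48 RPKM in knockouts 1 to 3. Of the 15, only Il17rb had all knockouts above all controls (log2 fold change 0.51, SE 0.191, 4.09% of all genes tested). Only Jak3 had all knockouts below (-0.22, SE 0.113, 2.99% of all genes tested).

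Targets of IL-4 and IL-13 had positive fold changes, none of which passed the test. Of 19 measured, 13 passed the filter, and the log2 fold change was above 0 in all 13, as in 7980 of the 14045 genes tested. Their median was 0.51 beside 0.02 over all genes tested, and limma put 0 past the threshold (7 with an unadjusted p under 0.05, beside 3.15% of all genes). In 5 of the 13 the knockout values lay above all control values (4.09% of all genes tested), and 6 of the 13 were highest in knockout 2 (7.13% of all genes tested). Clca3, a secreted goblet cell gene named Clca1 in GENCODE, was at 517, 131 and 1010 RPKM in controls 1 to 3. It was at 3241, 2827 and 1729 RPKM in knockouts 1 to 3, above all controls (limma log2 difference 2.62, SE 0.690, adjusted p = 0.838). The eosinophil chemokine gene Ccl11 (0.07, SE 0.0993) and the transglutaminase gene Tgm2 (0.14, SE 0.154) overlapped between the groups. Retnla, which encodes the macrophage product Fizz1 often measured together with Ym1, was chosen after its values were seen. It was at 8.59, 27.6 and 10.5 RPKM in knockouts 1 to 3 and between 8.84 and 10.3 RPKM in controls, so only knockout 2 stood clear.

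**Figure D3:**
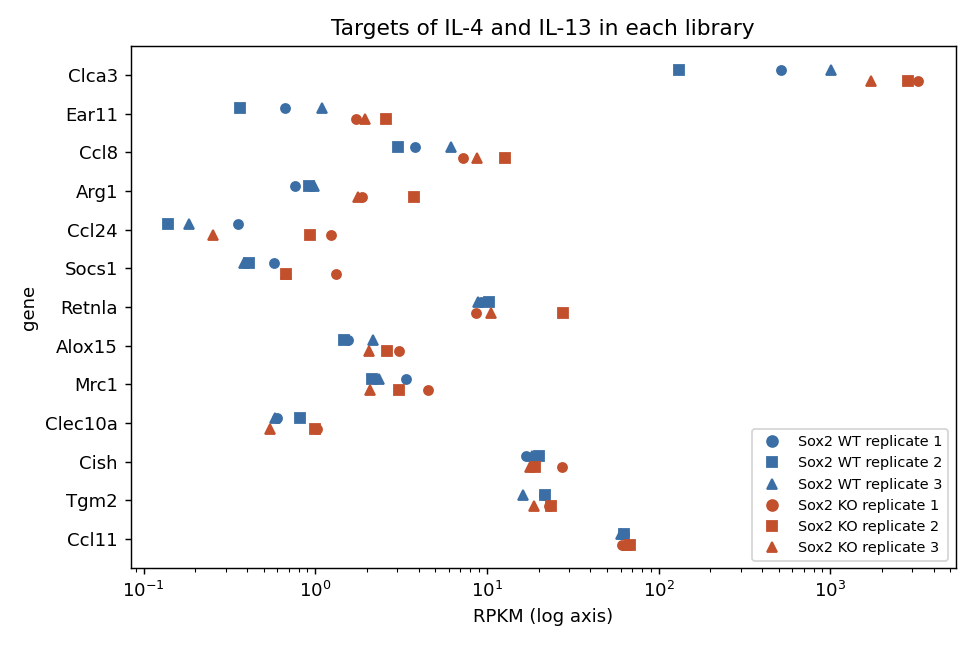
RPKM on a log axis for the 13 tested targets of IL-4 and IL-13, 1 row per gene, controls in blue and knockouts in red, with the marker shape giving the replicate. Clca3, Ear11, Ccl8, Arg1 and Socs1 have all knockouts to the right of all controls, and Ccl11 and Tgm2 do not.

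Some of these targets were also the genes most like the pair across libraries. By Pearson correlation of log2(RPKM + 0.5) over the 6 libraries, Chi3l4 was most like Ear11 (0.996), an eosinophil-associated ribonuclease gene, Ccl8 (0.988), a chemokine gene, Rab5c (0.987), Noxa1 (0.984) and Prap1 (0.980). Ear11 was at 0.666, 0.365 and 1.09 RPKM in controls 1 to 3 and 1.72, 2.57 and 1.94 RPKM in knockouts 1 to 3 (limma log2 difference 1.12, SE 0.242, adjusted p = 0.526). Ccl8 was at 3.83, 3.02 and 6.17 RPKM and then 7.20, 12.7 and 8.76 RPKM in the same order (limma log2 difference 1.07, SE 0.277, adjusted p = 0.823). Both genes repeated the order of libraries of Chi3l4 within each group (0.79% of all genes tested), which their choice by correlation with Chi3l4 favours. Prap1, chosen in the same way, was highest in knockout 3.

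Chi3l3 was most like Trappc2 (0.998), Mcpt2 (0.996), a mucosal mast cell protease gene, Arg1 (0.976), the arginase gene of alternatively activated macrophages, Lipc (0.960) and Dhx58 (0.955). Arg1 was at 0.762, 0.923 and 0.988 RPKM in controls 1 to 3 and at 1.87, 3.75 and 1.77 RPKM in knockouts 1 to 3 (limma log2 difference 1.03, SE 0.248, adjusted p = 0.654). Knockout 2 was again the highest, which the choice of Arg1 by correlation with Chi3l3 favours. Chi3l1 was most like Mctp1 (0.991), Sumf1 (0.987), Eef2 (0.986), Polr3gl (0.984) and Hdac10 (0.981). With 6 libraries and at least 12721 genes compared, high values are easily reached. A total of 25 genes had a correlation of at least 0.95 with Chi3l4, 7 with Chi3l3 and 23 with Chi3l1.

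Binding partners described for the Chi3l1 protein gave a median log2 fold change of 0.02 over 4 tested of 7 measured, with 0 past the threshold (limma; 0 with an unadjusted p under 0.05). The galectin-3 gene Lgals3 had 0.25 (SE 0.378), the adhesion receptor gene Cd44 -0.22 (SE 0.238) and the syndecan gene Sdc1 -0.03 (SE 0.140). Of the inflammatory cytokine and acute response genes, which often accompany Chi3l1, 8 of 20 were tested with a median of 0.01 and 0 past the threshold (limma; 1 with an unadjusted p under 0.05). Il17a, Il22 and Ifng were listed at 0 in all 6 libraries. Saa3, an acute phase gene chosen after its values were seen, was at 0.801 ± 0.387 RPKM in controls and 3.05 ± 0.948 RPKM in knockouts (SD, n = 3 each), and limma gave a log2 difference of 1.46 (SE 0.272, adjusted p = 0.310).

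Markers of cells that could carry these transcripts were set beside them. Of 14 macrophage markers 14 were tested and 0 passed (limma; 0 with an unadjusted p under 0.05), with a median of 0.05. Their summed level was 112 to 188 RPKM in controls and 115 to 179 RPKM in knockouts. Lyz2 was at 61.0 ± 23.9 and 60.3 ± 19.1 RPKM, and the complement genes C1qa and C1qb had log2 fold changes of 0.04 and -0.01. Among 14 neutrophil markers 1 was tested, Retnlg (0.66, SE 0.331, limma adjusted p = 1.00), the summed level was 4.99 to 8.16 RPKM against 6.58 to 15.2 RPKM, and Ly6g, Elane and Camp were listed at 0 in all 6 libraries.

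Squamous epithelium lines the forestomach of the mouse, and most of its defining genes were near 0. Of 15 measured, 2 were tested, Sprr1a (log2 fold change -0.09) and Krt13 (0.11), while Krt6a, Sprr1b and Sprr3 were listed at 0 in all libraries and Krt5, Krt14 and Trp63 did not exceed 0.0674 RPKM. The summed level, mostly from Sprr1a, was 56.5 to 478 RPKM in controls and 64.2 to 207 RPKM in knockouts. Sprr1a was highest in control 3, at 475 RPKM.

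Eosinophil and mast cell genes were also examined. The summed level of 9 eosinophil markers came mostly from Siglec5 and Alox15, the latter also a listed target of IL-4 and IL-13. This sum was 2.52 to 4.35 RPKM in controls and 4.81 to 8.34 RPKM in knockouts, without overlap. Epx, Ear1 and Ear6 were listed at 0 in all libraries, and the 2 markers tested were Siglec5 and Alox15. Of these 0 passed (limma, 2 with an unadjusted p under 0.05, beside 3.15% of all genes). Among the 9 markers only Siglec5 had all knockouts above all controls (4.09% of all genes tested). Ccr3 was lowest in knockout 3, at 0.0270 RPKM. Siglec5, the gene of Siglec-F, a receptor that intestinal tuft cells carry too, was at 1.06 ± 0.446 RPKM and 3.30 ± 0.692 RPKM (SD, n = 3 each), and limma gave a log2 difference of 1.31 (SE 0.238, adjusted p = 0.298). Of 10 mast cell markers tested 0 passed (limma; 2 with an unadjusted p under 0.05) with a median of 0.09 (-0.05 without knockout 2). Their summed level was 52.3 RPKM in knockout 2, the library highest in Chi3l3 and Chi3l4, and 25.4 to 32.1 RPKM in the other 5 libraries. Mcpt2 was at 6.25 ± 0.405 and 10.6 ± 3.71 RPKM (SD, n = 3 each), and the tryptase genes Tpsab1 (0.08, SE 0.400) and Tpsb2 (-0.05, SE 0.244) overlapped between the groups. Mcpt1, another mucosal mast cell protease gene, chosen after its values were seen, was at 1.58, 0.418 and 1.92 RPKM in controls 1 to 3. It was at 2.56, 8.58 and 3.49 RPKM in knockouts 1 to 3, above all controls and highest in knockout 2 (limma log2 difference 1.53, SE 0.485, adjusted p = 1.00). The part of any of these cells in the levels of Chi3l3 and Chi3l4 was not tested.

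Goblet cell genes had the highest median of the cell type lists, 1.39 over 7 tested, with 0 past the threshold (limma; 6 with an unadjusted p under 0.05, beside 3.15% of all genes). Their summed level was 1110 to 2842 RPKM in controls against 3741 to 5287 RPKM in knockouts, and 4 of the 7 had all knockouts above all controls (4.09% of all genes). Among these was Clca3, which is also a listed target of IL-4 and IL-13. Agr2, a disulfide isomerase gene of mucus-secreting cells, had the opposite sign, at 1201 ± 393 RPKM in controls and 852 ± 249 RPKM in knockouts (SD, n = 3 each), with overlapping groups (limma log2 difference -0.48, SE 0.309, adjusted p = 1.00). Tuft cell genes had a median of 0.93 over 7 tested, with 0 past it (limma; 6 with an unadjusted p under 0.05, beside 3.15% of all genes), and 6 of the 7 had all knockouts above all controls (4.09% of all genes). The medians of all these epithelial lists moved when single libraries were left out, from 0.99 to 1.94 for goblet and 0.78 to 1.07 for tuft cells. With each library left out in turn, the median of chief cells, a list that includes Chia, was 0.13 to 0.94 around 0.45. That of parietal cells was -0.37 (without control 3) to 0.89 (without control 2) around 0.25. That of enterocytes was 0.06 (without control 3) to 0.98 (without control 2) around 0.29. Surface mucous cells had 0.25 (0.07 to 0.49) and gland mucous cells 0.08 (-0.15 with quantile normalization). Haemoglobin genes, which mark blood in the tissue, had a median of 0.64 over 4 tested, with 0 past the threshold (limma; 4 with an unadjusted p under 0.05, beside 3.15% of all genes). Their summed level was 3.51 to 4.97 RPKM in controls and 6.45 to 11.8 RPKM in knockouts, without overlap. All 4 were highest in knockout 2 (7.13% of all genes), the library highest in Chi3l3 and Chi3l4. The part of blood in those levels was not tested. The remaining medians were -0.01 for smooth muscle, 0.02 for fibroblasts and 0.08 for lymphocytes, and with 1 library left out they ran from -0.23 to 0.22, from -0.09 to 0.17 and from -0.14 to 0.42. Exocrine pancreas genes had a median of 0.29 over 3 tested, which was -0.11 with a filter of 1 RPKM and -0.19 without control 3. Their summed level was the other way, 511 to 542 RPKM in controls and 294 to 462 RPKM in knockouts, mostly from the elastase gene Cela1 (limma log2 difference -0.51, SE 0.192, adjusted p = 1.00). Of the exocrine pancreas list, Cpa1 and Amy2a5 were at 0 in all 6 libraries and Prss1 reached at most 0.126 RPKM. No member of the 23 lists passed the threshold.

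**Figure D4:**
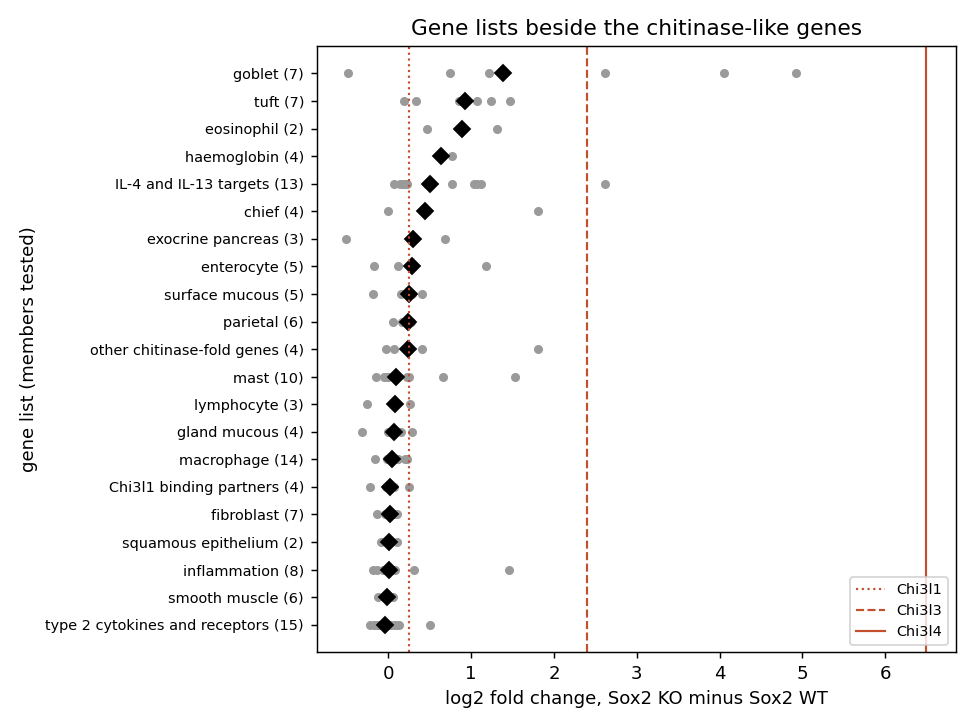
Log2 fold changes, knockouts (Sox2 KO) minus controls (Sox2 WT), of the tested members (grey) and their median (black diamond) in 21 gene lists, with the number tested in brackets; the vertical lines are Chi3l1, Chi3l3 and Chi3l4. The line of Chi3l4 at 6.50 lies beyond every list member, and that of Chi3l3 at 2.40 is passed only by the goblet genes Clca3, Zg16 and Itln1. Rows can share genes, as Clca3 also stands among the IL-4 and IL-13 targets.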

How the data were processed

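RNA-seq of 6 pylorus samples was used. The authors deposited RPKM values. The submitters' processing notes name CASAVA 1.7, STAR and mm10. No label states the counting tool, annotation, read length or strandedness. The 6 single-library tables equal the 6 columns of the series table.

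The relative totals behind the RPKM came from the commonest ratio between libraries over low genes. The absolute total came from GENCODE M21 lengths of 1621 genes with 1 transcript, of which 776 lay within about 0.1% of the commonest value. Reads were recovered as the smallest whole numbers in proportion to RPKM times total (tolerance 1e-06 reads). For Chi3l1 and Chi3l3 they imply lengths of 2796 and 1623 bases, near the annotated 2804 and 1632. For Chi3l4 they imply 1623 bases, against an annotated 2817 that include a retained-intron transcript.

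limma 3.58.1 in R 4.3.3 was fitted to log2(RPKM + 0.5) with a variance trend and Benjamini-Hochberg adjustment (threshold 0.05), over the 14045 genes with a mean of at least 0.5 RPKM. Of rows sharing a symbol the highest was kept. Its code was tested on simulated data. Each fold change is the mean of the knockouts minus that of the controls on this scale, which understates low genes. Sequences were aligned with Biopython 1.88 in Python 3.11.15.

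The 3 genes and the 23 lists were chosen with earlier results of these data known. The rule for named genes took the 3 genes, the other chitinase-fold genes and the 5 genes most correlated with each of the 3, without predicted, immunoglobulin, T-cell receptor and Y-linked genes. Of each list it took members past the threshold or, with none, the 3 most abundant, and for some lists those listed at 0. Il4, Il5, Il13, Il25, Retnla, Socs1, Saa3, Mcpt1, Krt5, Krt14, Trp63, Itln1 and 2010016I18Rik were named after their values were seen, and not every gene the rule took is printed. Il33, Il17rb, Jak3, Ccr3, Cpa1, Amy2a5 and Prss1 were also named after their values were seen. Alternatives were other pseudocounts, filters, thresholds and scalings, no variance trend, a replicate block, sex as a covariate, male libraries alone and each library left out. Reads scaled to library size without length were added after the data were seen. A planned comparison of protein sequences was not made.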

Additional observations from a re-analysis of the deposited data

How the results depend on the processing

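For the 3 selected genes every knockout lay above every control, so leaving out libraries or changing the pseudocount could not reverse the sign. The log2 differences of Chi3l1, Chi3l3 and Chi3l4 were positive under all alternatives run. With each library left out in turn they ran from 0.20 to 0.32 for Chi3l1, 1.41 to 2.95 for Chi3l3 and 5.39 to 7.92 for Chi3l4. That of Chi3l1 was 0.53 with a pseudocount of 0.1 and 0.43 on reads scaled to library size without length, an alternative added after the data were seen. The cause was not tested. The correlation of Chi3l3 with Chi3l4 was 0.50 within groups. The 4 genes past the limma threshold over the whole table became 1 with the replicate block, 1 with sex as a covariate, 0 with male libraries alone (583 with an unadjusted p under 0.05) and 8 at an adjusted p under 0.1. With male libraries alone the control arm is control 1 only, assumed to vary like the knockouts, so that count says nothing about stability. Leaving out 1 library gave 1 to 8, with 7 without control 1, 1 without control 3, 8 without knockout 1 and 1 without knockout 2. The replicate block cannot move a log2 difference, since each replicate number occurs once in each group. Those of the 3 genes therefore remained 0.25, 2.40 and 6.50. Same-numbered libraries correlated at 0.01, 0.10 and -0.07 in their deviations over genes, so the numbers are not taken as pairs. Of 352 list medians recomputed under 16 alternatives, 338 stayed within the spread between libraries. That count overstates stability, since the replicate block and a fit without variance trend cannot move a median. Sex as a covariate and male libraries alone gave the same medians. The spread was also wide for some lists. It was 1.01 for parietal cells, so their median of -0.37 without control 3 counts as within it. With sex as a covariate, or male libraries alone, the median was -0.54 for smooth muscle and -0.17 for fibroblasts. Without control 2 it was 0.98 for enterocytes, 0.88 for exocrine pancreas and 0.89 for parietal cells. Depth limits Chi3l1 in all libraries and Chi3l3 in controls.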
